A study of Mus musculus with 8 samples.

Results

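Plasma cells and B cells are described here in mouse dorsal root ganglia through 9 genes, Jchain, Mzb1, Igl, Xbp1, Derl3, Pou2af1, Cd79a, Cd79b and Cxcl13. All 9 were found by symbol among the 25780 genes counted in each of 8 RNA sequencing libraries, and all 9 passed the filter on low counts that left 20235 genes. They were chosen by their counts in these 8 libraries, which earlier results showed high almost only in wild-type mice given vehicle, so every difference from those libraries is given as a description and without a test. The iKO mice carried Avil-iCreERT2/AJwo and G9aflox/flox, an inducible Cre driven by the sensory neuron gene Avil with floxed Ehmt2 (G9a), a histone methyltransferase gene. The WT mice were littermates without Cre, and their floxed alleles were not stated. Each genotype received complete Freund's adjuvant (CFA), which inflames the paw, or vehicle in the left paw, and ganglia were taken after 14 days. The groups were iKO CFA, iKO vehicle, WT CFA and WT vehicle, with 2 libraries each. Age, sex, the inducer of Cre and whether libraries came from separate animals were not given in the sources used here.

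B cells recognise antigen through a surface antibody that signals through the paired chains Cd79a and Cd79b. Activated B cells can become plasma cells, which switch on the transcription factor Xbp1, enlarge the endoplasmic reticulum and secrete antibody. Cxcl13 is not made by most B cells themselves: it is a chemokine, typically of stromal cells in lymphoid follicles, that draws in B cells carrying the receptor Cxcr5. In bulk tissue, fewer cells of a type and less RNA per cell cannot be told apart.

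The promoters of 6 of the 9 genes were in the RefSeq table used (GRCm38.p6, 250 bases before to 50 after the gene's start), and 2 of them held a motif of the secretory response in which Xbp1 takes part. These are shown with that of Jchain, the gene against which the others are measured further on, as the 170 bases before the start, 5′ to 3′ on the gene's strand, with motif letters in capitals. The Derl3 promoter (chr10:75893228-75893397, plus strand) held an ER stress element on its minus strand from position -156 to -138. The Pou2af1 promoter (chr9:51213520-51213689, plus strand) held the XBP1 element TGACGTGG from -61 to -54. Jchain (chr5:88527898-88528067, minus strand) held none of the motifs searched.
Derl3: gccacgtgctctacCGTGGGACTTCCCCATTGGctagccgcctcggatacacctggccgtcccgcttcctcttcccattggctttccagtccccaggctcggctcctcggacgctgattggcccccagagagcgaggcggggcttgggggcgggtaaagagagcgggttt
Pou2af1: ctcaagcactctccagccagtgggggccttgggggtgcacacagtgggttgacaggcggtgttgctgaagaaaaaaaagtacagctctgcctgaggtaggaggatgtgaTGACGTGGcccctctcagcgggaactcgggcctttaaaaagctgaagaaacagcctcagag
Jchain: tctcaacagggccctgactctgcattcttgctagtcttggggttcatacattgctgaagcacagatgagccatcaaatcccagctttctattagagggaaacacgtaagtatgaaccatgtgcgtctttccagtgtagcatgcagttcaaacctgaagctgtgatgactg
On either strand, the XBP1 element was in 0.676% of 32851 promoters of this length and the ER stress element in 0.119%. The octamer ATGCAAAT, the site of the factors that Pou2af1 assists, was in 1.74% of them and the ETS-IRF element in 2.72%, and neither was in these 6. A match describes letters only, and the motifs did not overlap each other in these promoters.

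Libraries held between 26312614 and 42971823 reads. Ehmt2 was at 45.0 and 44.2 CPM (counts scaled to library depth) in iKO CFA and at 34.0 and 31.6 CPM in iKO vehicle, against 74.2 and 61.3 CPM in WT CFA and 74.4 and 65.4 CPM in WT vehicle. It fell in iKO vehicle against WT vehicle by 1.09 on the log2 scale (± 0.18, edgeR adjusted p = 0.00655; 0.0662 without WT vehicle library 1, 0.0693 and 0.0958 without iKO vehicle library 1 and 2), and differed by -0.60 ± 0.18 under CFA (adjusted p = 0.154; 0.0205 in DESeq2, and 0.00320 without WT CFA library 2, where the difference was -0.74). The WT vehicle libraries stood apart in genes unrelated to B cells. Malat1, a nuclear noncoding RNA, lay between 27.4 and 57.0 CPM in the 6 other libraries and at 1323 and 1187 CPM in WT vehicle, and the early response gene Fos lay between 3.01 and 5.87 CPM against 99.1 and 91.9 CPM. Avil, Prph and 7 other sensory neuron markers were read in every library. What part these differences have in the values below was not tested.

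Among the antibody genes, Jchain encodes the chain that joins antibody units into IgM and IgA polymers. Its level was 23.4 and 31.5 CPM in iKO CFA, 4.73 and 2.30 CPM in iKO vehicle, 0.961 and 0.445 CPM in WT CFA, and 1944 and 780.1 CPM in WT vehicle. The 4 groups did not overlap, and WT vehicle library 2, the lower of its pair, was 24.7 times the highest of the 6 other libraries. Igl, the antibody lambda light chain locus, was at 0.452 and 0.493 CPM in iKO CFA, 0.0980 and 0.0287 CPM in iKO vehicle, 0 reads in both WT CFA libraries, and 15.4 and 9.14 CPM in WT vehicle. Its groups did not overlap either, but the iKO vehicle values rest on 4 reads and 1 read. A count of 0 allowed up to 0.0801 CPM in WT CFA library 1 and up to 0.103 CPM in library 2 (3 reads each, counting error only).

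**Figure D1:**
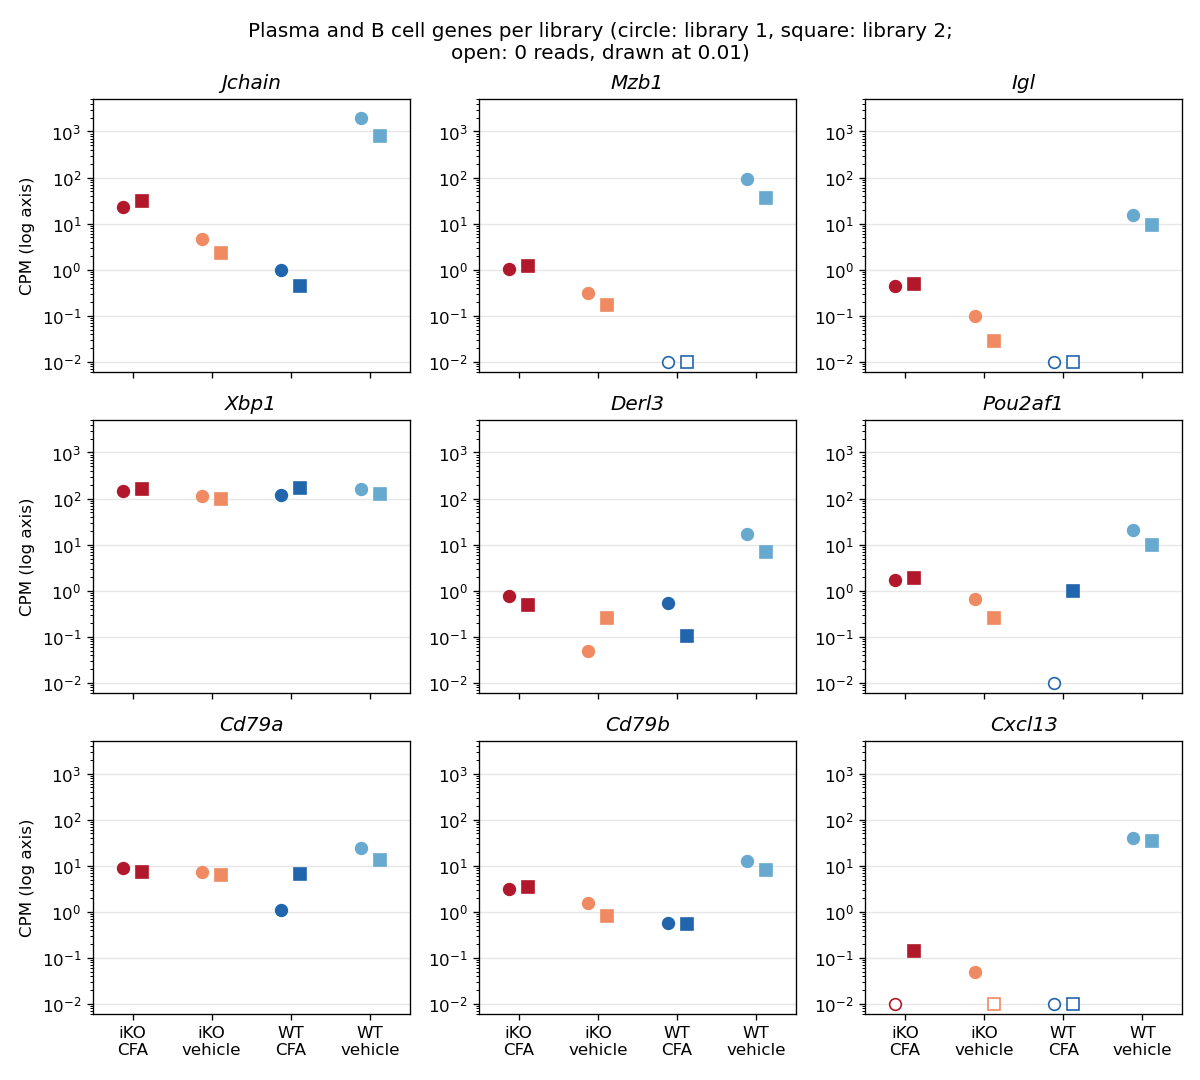
CPM of the 9 genes in each library on a log axis, with groups from left to right iKO CFA, iKO vehicle, WT CFA and WT vehicle; circles are library 1, squares library 2 and open symbols are libraries with 0 reads, drawn at 0.01. Jchain spans 0.445 to 1944 CPM, while Xbp1 stays between 96.2 and 167 CPM in all 8 libraries.

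Genes of the endoplasmic reticulum differed among themselves. Mzb1, a reticulum protein that helps antibodies assemble, was at 1.02 and 1.18 CPM in iKO CFA, 0.319 and 0.172 CPM in iKO vehicle, 0 reads in both WT CFA libraries, and 94.1 and 36.6 CPM in WT vehicle. It followed Jchain, with 4 groups that did not overlap. Derl3, which helps remove misfolded proteins from the reticulum, was at 0.783 and 0.493 CPM in iKO CFA, 0.0490 and 0.258 CPM in iKO vehicle, 0.534 and 0.103 CPM in WT CFA, and 17.1 and 7.0 CPM in WT vehicle. WT vehicle was the high group again, and WT CFA overlapped both iKO groups. Xbp1, the factor that drives the secretory programme and is used by many cell types, was at 145 and 165 CPM in iKO CFA, 113 and 96.2 CPM in iKO vehicle, 122 and 167 CPM in WT CFA, and 158 and 125 CPM in WT vehicle. It did not share the pattern for which the genes were chosen: WT vehicle held 25.9% of its CPM summed over libraries, against 97.7% for Jchain and 98.0% for Mzb1.

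The B cell genes Pou2af1, Cd79a and Cd79b were high in WT vehicle by smaller factors than Jchain and Mzb1. Pou2af1, a coactivator of octamer-binding factors in B cells, was at 1.69 and 1.86 CPM in iKO CFA, 0.662 and 0.258 CPM in iKO vehicle, 0 and 0.992 CPM in WT CFA, and 21.1 and 9.59 CPM in WT vehicle. Both iKO vehicle libraries lay between the WT CFA libraries. Cd79a was at 8.68 and 7.37 CPM in iKO CFA, 7.28 and 6.17 CPM in iKO vehicle, 1.07 and 6.57 CPM in WT CFA, and 24.6 and 13.5 CPM in WT vehicle, which held 50.6% of its summed CPM. WT CFA library 1 was the low library, and library 2 lay between both iKO vehicle values. Cd79b was at 3.13 and 3.40 CPM in iKO CFA, 1.54 and 0.804 CPM in iKO vehicle, 0.561 and 0.548 CPM in WT CFA, and 12.9 and 8.01 CPM in WT vehicle. Its 4 groups did not overlap, and it ordered them as Jchain did. Cxcl13 had 0 and 5 reads in iKO CFA, 2 and 0 in iKO vehicle, 0 and 0 in WT CFA, and 1172 in each WT vehicle library (39.3 and 34.9 CPM). Outside WT vehicle its levels were at or near the limit of detection. Its lower WT vehicle library was 255 times the highest other library, the largest such ratio of the 9 genes.

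In 6 of the 9 genes the group means ran, from high to low, WT vehicle, iKO CFA, iKO vehicle, WT CFA. Derl3 and Pou2af1 had WT CFA above iKO vehicle with overlapping libraries, and Xbp1 was highest in iKO CFA. Between neighbours in this order, all 3 steps were without overlap for Jchain, Mzb1, Igl and Cd79b, 2 steps for Cd79a, and 1 step for Cxcl13. In the order of each gene's own group means, they were 2 steps for Pou2af1 and 1 each for Derl3 and Xbp1. Over all genes tested, in whatever order of groups, 3 steps were without overlap for 5.39%, 2 for 27.9% and 1 for 46.3%. Both WT vehicle libraries lay above all 6 others for 8 of the 9 genes, as they did for 20.6% of the genes tested. They lay over 10 times above the highest other library for 4 of the 9 (Jchain, Mzb1, Igl and Cxcl13), as for 0.761% of the genes tested. Both counts follow from how the genes were chosen.

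The size of the WT vehicle excess is given here as a fold of pooled reads with a 95% interval for counting error. Against WT vehicle, Jchain was 1806-fold lower in WT CFA (interval 1366 to 2442) and 368-fold lower in iKO vehicle (327 to 416). Mzb1 was at least 1415-fold lower in WT CFA, taking 3 reads over the group as the limit, and 253-fold lower in iKO vehicle (162 to 421). Cxcl13 was at least 821-fold lower in WT CFA and 1398-fold lower in iKO vehicle, where 2 reads gave an interval of 387 to 11550. Cd79b was 18.6-fold lower in WT CFA (13.3 to 26.6) and 8.57-fold lower in iKO vehicle (6.88 to 10.8). Cd79a was 5.38-fold lower in WT CFA (4.67 to 6.22) and 2.77-fold lower in iKO vehicle (2.49 to 3.07). Both WT CFA libraries lay below both WT vehicle libraries for 8 of the 9 genes, against 30.8% of the genes tested, and both iKO vehicle libraries did so for 9 of 9, against 36.5% (38.9% lay above).

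The WT vehicle libraries also differed from each other, a difference that the choice of genes did not use. All 9 genes were higher in library 1, by a median ratio of 1.82, while the median over all genes tested was 0.985. Jchain was 2.49 times higher in library 1 (95% counting interval 2.46 to 2.53), Mzb1 2.57 times (2.40 to 2.75), Derl3 2.45 times (2.09 to 2.87) and Pou2af1 2.2 times (1.92 to 2.53). The antibody loci outside the 9 lay near them, with Igh at 2.46 (2.38 to 2.54) and Igk at 2.76 (2.63 to 2.89). Cd79a at 1.82 (1.62 to 2.05), Igl at 1.69 (1.46 to 1.95) and Cd79b at 1.61 (1.37 to 1.89) had intervals below those of Jchain and Mzb1. Xbp1 (1.27) and Cxcl13 (1.12, interval 1.04 to 1.22) were closest to equal. These ratios compare those 2 libraries and cover counting error only. Skeletal muscle markers moved with them, at a summed 425 CPM in library 1 and 7.21 CPM in library 2, and their part in the difference was not tested.

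**Figure D2:**
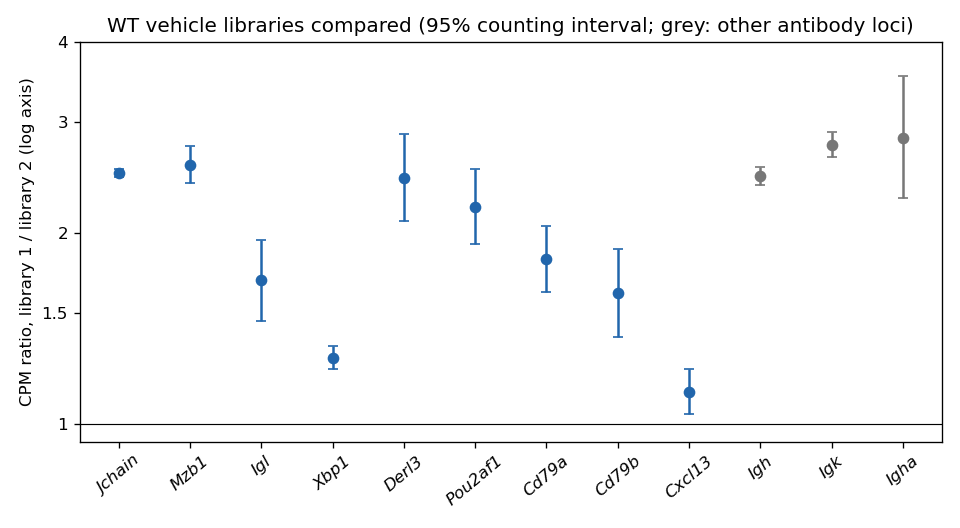
Ratio of CPM in WT vehicle library 1 to library 2 on a log axis, with 95% counting intervals, for the 9 genes in blue and for the antibody loci Igh, Igk and Igha in grey. Jchain, Mzb1, Derl3 and the grey loci lie near 2.5, and Cxcl13 lies at 1.12.

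Reads of each gene per 1000 Jchain reads compare its proportion to Jchain across libraries. This measure was chosen after the values were seen. For Mzb1 it was 43.9 and 37.4 in iKO CFA, 67.4 and 75.0 in iKO vehicle, and 48.4 and 47.0 in WT vehicle. The 95% counting intervals of all 6 libraries overlapped (30.2 to 61.8 in iKO CFA library 1 and 46.6 to 50.3 in WT vehicle library 1), although Jchain itself ran from 2.30 to 1944 CPM between them. The iKO vehicle values rest on 13 and 6 Mzb1 reads, with intervals of 35.2 to 118 and 26.7 to 171. A moderate change in proportion could go unseen there. In WT CFA, with 36 and 13 Jchain reads, the limit on Mzb1 reached 108 and 328 per 1000, so the proportion could not be read there. Cd79a did not keep a fixed proportion: it was at 372 and 234 per 1000 Jchain reads in iKO CFA, 1539 and 2688 in iKO vehicle, and 12.7 and 17.3 in WT vehicle. Igh, the antibody heavy chain locus, was at 480.0 and 356 in iKO CFA, 1860.1 and 3163 in iKO vehicle, and 203 and 205 in WT vehicle, so it was nearly equal within WT vehicle and higher in both iKO groups. Igl was at 19.4 and 15.6 in iKO CFA and 20.7 and 12.5 in iKO vehicle, against 7.93 and 11.7 in WT vehicle.

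**Figure D3:**
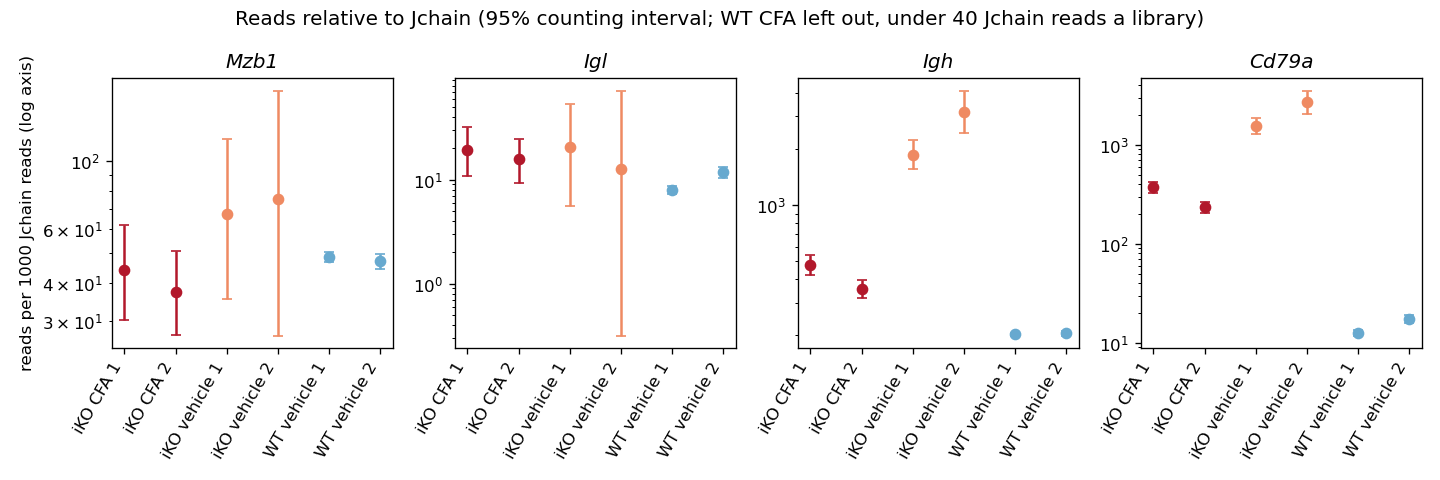
Reads per 1000 Jchain reads for Mzb1, Igl, Igh and Cd79a in iKO CFA, iKO vehicle and WT vehicle libraries, on log axes that differ between panels, with 95% counting intervals. Mzb1 intervals overlap in all 6 libraries, those of iKO vehicle resting on 13 and 6 reads. Cd79a runs from 12.7 in WT vehicle library 1 to 2688 in iKO vehicle library 2.

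CFA against vehicle in iKO mice is a comparison that leaves WT vehicle out. Cxcl13, with 0 and 5 reads in iKO CFA against 2 and 0 in iKO vehicle, passed the filter on low counts only through the WT vehicle libraries and is given by its reads alone. The 8 other genes passed without those libraries, had a median log2 fold change of 1.997 against -0.00115 over all genes tested, and had both CFA libraries above both vehicle libraries. The same separation held for 33.9% of all genes tested. For 7 of the 9 genes, Xbp1 and Cxcl13 being the others, both CFA libraries lay above both vehicle libraries in iKO and below them in WT, as for 9.68% of all genes tested, a count that the choice of genes affects. In edgeR's quasi-likelihood test with Benjamini-Hochberg adjustment, 0 of 8 passed as higher and 0 as lower, against a background of 0.0395% of genes called higher and 0% called lower. At an unadjusted p under 0.05 there were 6 of 8, all higher, beside 13.8% of all genes that were higher. DESeq2 called 4 of 8 higher (Jchain, Mzb1, Igl and Cd79b), beside 17% of all genes called in either direction. The largest difference was that of Jchain, at 27.5 ± 5.80 CPM in iKO CFA and 3.51 ± 1.72 CPM in iKO vehicle (SD, n = 2 each), with a log2 fold change of 2.96 ± 0.52 (SE, adjusted p = 0.0831). Igl differed by 2.79 ± 0.64 (adjusted p = 0.0943), Mzb1 by 2.13 ± 0.61 (0.103) and Cd79b by 1.47 ± 0.40 (0.0994). Xbp1 was at 155 ± 14.2 CPM in iKO CFA and 105 ± 12.2 CPM in iKO vehicle, a difference of 0.57 ± 0.22 (0.142), and Cd79a differed by 0.25 ± 0.64 (0.822).

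The count in iKO changed with libraries of another group, and the cause was not tested. Libraries of the same group differed most in WT CFA, with a median absolute log2 difference of 0.503. It was 0.240 in WT vehicle, 0.168 in iKO CFA and 0.136 in iKO vehicle. The same model estimated the spread for all groups. Without WT CFA library 1, or without WT CFA library 2, 7 of the 8 genes passed as higher, while 32.2% and 32% of all genes then passed in either direction. The fit of the 4 iKO libraries alone called 6 of 8 as higher beside 45.3% of all genes in either direction. Markers of other blood cells were also high in iKO CFA. The summed level of 10 granulocyte markers was 1407 and 1402 CPM in iKO CFA against 94.7 and 65.3 CPM in iKO vehicle, and that of 7 red cell markers 1493 and 1379 CPM against 375 and 300.3 CPM. In WT CFA the red cell markers were at 166 and 1426 CPM, so library 2 lay between the iKO CFA libraries. Adipocyte markers, of which 5 were in the files, summed to 38.1 and 59.9 CPM against 0.613 and 0.517 CPM, and Cfd among them was called higher (adjusted p = 0.0382). Their part in the result was not tested.

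iKO against WT under CFA, the other comparison without WT vehicle, gave 4 of the 8 genes past the threshold, all higher in iKO, with Cxcl13 again left out of the count (0 and 5 reads in iKO CFA, 0 in WT CFA). The background was 1.5% of genes called higher and 0.208% called lower, 1.7% in all. Jchain differed by a log2 fold change of 5.25 ± 0.61 (SE, n = 2 libraries each, adjusted p = 0.00478), a pooled ratio of 37.6 (95% counting interval 28.3 to 51.0). Mzb1, with 77 reads in iKO CFA and 0 in WT CFA, was at least 24.6-fold higher (adjusted p = 0.0289), and Igl, with 33 reads and 0, at least 10.5-fold higher (adjusted p = 0.0274), each against 3 reads over the WT CFA group. Cd79b was at 3.27 ± 0.188 CPM in iKO CFA and 0.554 ± 0.00941 CPM in WT CFA, a difference of 2.55 ± 0.43 (adjusted p = 0.0271). Pou2af1 (1.91 ± 1.05, adjusted p = 0.437), Cd79a (1.09 ± 0.66, 0.482), Derl3 (0.94 ± 0.82, 0.634) and Xbp1 (0.10 ± 0.22, 0.875) did not pass. Both iKO CFA libraries lay above both WT CFA libraries for 6 of the 8 genes, against 21.6% of all genes tested.

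Only the Jchain call was kept under all 15 alternatives tried, with adjusted p of at most 0.0433; its log2 difference was 5.94 without WT CFA library 1. The count was 1 of 8 without iKO CFA library 1 or 2, where 0.405% and 0.342% of all genes passed in either direction, and 2 of 8 without WT vehicle library 1 or 2 (0.923% and 0.869%). It was 3 of 8 without WT CFA library 1 (3.29%) and 6 of 8 without WT CFA library 2 (26.8%). Without both WT vehicle libraries 1 of 8 passed beside 0.866% of all genes, and Cd79b then had an adjusted p of 0.0968. T cell markers also differed in this comparison, at a summed 14.1 and 14.6 CPM in iKO CFA against 3.42 and 5.85 CPM in WT CFA, with 2 of 11 called higher. Granulocyte markers stood at 1407 and 1402 CPM against 29.3 and 232 CPM. Their part in the result was not tested.

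**Figure D4:**
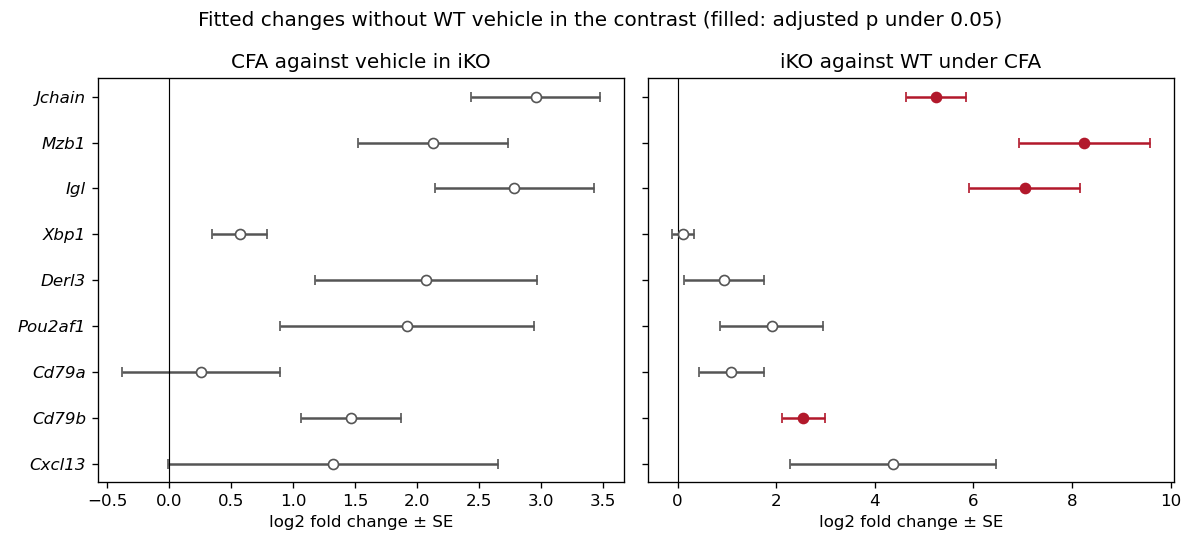
Log2 fold change ± SE of the 9 genes for CFA against vehicle in iKO (left) and iKO against WT under CFA (right), from edgeR's quasi-likelihood fit to 8 libraries; filled red points passed an adjusted p of 0.05. On the left none is filled, and on the right Jchain, Mzb1, Igl and Cd79b are filled. The points of Mzb1, Igl and Cxcl13 on the right rest on 0 reads in WT CFA and depend on the prior count. Cxcl13 passed the filter on low counts only through WT vehicle, so its points in both panels are drawn but not read as results.

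Other plasma cell genes followed in part. Among 15 such genes, 8 fell and 0 rose in WT CFA against WT vehicle (median log2 fold change -2.02, against -0.03 over all genes), where 8.71% of genes were called lower and 8.12% higher. In iKO vehicle against WT vehicle 9 fell and 1, the kinase gene Pim2, rose (0.95 ± 0.21, adjusted p = 0.0177, lost without any one WT vehicle or iKO vehicle library; median -2.09, against 0.01), where 9.33% were called lower and 8.28% higher. Prdm1, the factor that sets the plasma cell fate, had 4 and 0 reads in WT CFA and 17 and 7 reads in iKO vehicle, against 394 and 231 reads in WT vehicle. It fell by 7.33 on the log2 scale in WT CFA (± 0.83, adjusted p = 0.00193) and by 4.99 in iKO vehicle (± 0.68, 0.00351), the second call being lost without WT vehicle library 1 (0.0589). The WT CFA value was -11.42 without WT CFA library 1 and -6.51 without library 2, and depends on the prior count where the remaining library has 0 reads; the iKO vehicle value was -5.61 without iKO vehicle library 1. Irf4, which acts with Prdm1, fell by 4.38 in WT CFA (± 0.66, 0.00588, lost without WT vehicle library 1 at 0.0720) and by 4.81 in iKO vehicle (± 0.67, 0.00386; -4.19 without WT vehicle library 1 and -5.46 without iKO vehicle library 1). Trp53inp1 fell by 2.02 and 1.96 in the same comparisons (adjusted p = 0.00457 and 0.00422). Among these 15 genes 0 passed in iKO CFA against iKO vehicle and 0 in iKO CFA against WT CFA.

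The antibody loci in the files outside the 9 were Igh, Igk and Igha, of 17 symbols sought. Igh was at 11.2 and 11.2 CPM in iKO CFA, 8.80 and 7.26 CPM in iKO vehicle, 5.56 and 5.30 CPM in WT CFA, and 394 and 160.2 CPM in WT vehicle. All 3 fell in both comparisons with WT vehicle, where 8.71% (WT CFA) and 9.33% (iKO vehicle) of all genes were called lower. Igh fell by 5.67 in WT CFA (± 0.43, adjusted p = 4.45e-04) and by 5.11 in iKO vehicle (± 0.42, adjusted p = 5.10e-04), and kept both calls without each library in turn, at -4.88 and -4.33 without WT vehicle library 1. Without WT vehicle library 1 Igha lost both calls (0.146 and 0.162) and Igk that in iKO vehicle (0.0512), which was also lost without iKO vehicle library 2 (0.0602). Igha lost its iKO vehicle call without iKO vehicle library 1 or 2 as well (0.0973 and 0.118). In iKO CFA against WT CFA Igh differed by 1.05 ± 0.37 (0.235) and Igk by 2.21 ± 0.72 (0.197), and neither passed. Igk passed there without WT CFA library 2 (adjusted p = 0.00205).

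Other B cell genes were lower in both comparisons with WT vehicle, where 8.71% (WT CFA) and 9.33% (iKO vehicle) of all genes were called lower. Of 29 genes 18 fell and 0 rose in WT CFA (median -3.35), and 15 fell and 1 rose in iKO vehicle (median -3.26), the exception being Bank1 (1.12 ± 0.30, adjusted p = 0.0369, lost without any one iKO or WT vehicle library and with RLE scaling). Cd37, a tetraspanin of B cells and other leukocytes, fell by 3.49 in WT CFA (± 0.34, adjusted p = 0.00118) and by 3.40 in iKO vehicle (± 0.33, adjusted p = 9.45e-04). Pax5, the factor that holds B cell identity, fell by 3.39 in WT CFA (± 0.46, 0.00406). Without WT vehicle library 1 the counts of B cell and plasma cell genes called lower were far smaller in both comparisons, as was the share of all genes called. Pax5 then lost its call in WT CFA, at -2.95. Without iKO vehicle library 1 or 2 the iKO vehicle counts and the share of all genes were smaller as well. Cxcr5, the receptor for Cxcl13, had 25 and 19 reads in iKO CFA, 8 and 7 in iKO vehicle, 0 and 14 in WT CFA, and 94 and 74 in WT vehicle.

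Among the same 29 genes, 0 passed in iKO CFA against iKO vehicle and 3 passed as higher in iKO CFA against WT CFA. Of all genes tested, 0.0395% and 1.5% were called higher in these comparisons. The 3 were Cd37 (2.13 ± 0.33, adjusted p = 0.0177), the signalling adaptor Bank1 (1.69 ± 0.31, 0.0371) and the transcription factor Spib (4.98 ± 0.93, 0.0395; 3.88 without WT CFA library 1 and 9.75 without library 2, which leaves 0 reads in WT CFA). Bank1 had 356 and 312 reads in iKO CFA, 493 and 346 in iKO vehicle, 85 and 109 in WT CFA, and 164 and 155 in WT vehicle, so all 4 iKO libraries lay above all 4 WT libraries. The Bank1 and Spib calls were each lost when any one iKO or WT vehicle library was left out, and the Cd37 call without WT vehicle library 1 or an iKO CFA library. Without WT CFA library 2 the count was larger, as was the share of all genes called.

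B cell progenitor genes, signals that attract or keep B cells, and secretory genes gave few calls. Of 5 progenitor genes tested, Il7r alone passed: it fell by 4.34 in iKO vehicle against WT vehicle (± 0.59, adjusted p = 0.00454; lost without WT vehicle library 1 or iKO vehicle library 2) and, with 0 and 0 reads in WT CFA against 163 and 194 in WT vehicle, was lower there too (0.00169). It was higher in iKO CFA than in WT CFA (23 and 51 reads against 0 and 0, adjusted p = 0.0140), a call lost without WT vehicle library 2 or iKO CFA library 2. Rag1, Dntt and Vpreb3 passed in no comparison, and Rag1 differed by 1.80 ± 1.11 in iKO vehicle against WT vehicle (adjusted p = 0.282). T cell markers fell with Il7r in both comparisons with WT vehicle. Which cells the Il7r reads came from was not tested. Of 17 attraction and survival genes tested, 4 fell (Ltb, Ccr7, Ccl19 and Tnfsf11) and Il5 rose in WT CFA against WT vehicle, and 3 fell (Ltb, Ccr7 and Tnfsf11) and Il5 rose in iKO vehicle. Ltb, the lymphotoxin chain that maintains lymphoid stroma, fell by 4.16 (± 0.55, 0.00370; -3.54 and -5.17 without WT CFA library 1 and 2) and 4.47 (± 0.56, 0.00247). Of 30 genes of the secretory pathway and unfolded protein response 3 fell (Creld2, Edem1 and Hsp90b1) and 2 rose (Sec61a1 and Ssr2) in WT CFA (median -0.06), and 4 fell (the same 3 and Pdia4) and 0 rose in iKO vehicle (median -0.17). In WT CFA 8.71% of all genes tested were called lower and 8.12% higher, and in iKO vehicle 9.33% and 8.28%. The counts of secretory genes that fell lay near these shares. Creld2, a secretory stress gene, fell by 1.63 (± 0.27, 0.00799; lost without WT vehicle library 1 at 0.0731) and by 2.22 (± 0.28, 0.00248). Among the genes named by p from these 3 lists, the calls kept without each library in turn were Ltb in both comparisons, Il7r in WT CFA and Creld2 in iKO vehicle. These 3 lists gave 0 calls in iKO CFA against iKO vehicle, and 1, 0 and 0 in iKO CFA against WT CFA.

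Markers of other cells moved in several directions with the plasma and B cell genes. The 11 T cell markers summed to 14.1 and 14.6 CPM in iKO CFA, 13.5 and 13.3 CPM in iKO vehicle, 3.42 and 5.85 CPM in WT CFA, and 90.0 and 72.3 CPM in WT vehicle. In WT CFA 3 and 4 of them had 0 reads, among them Icos and Ctla4 in both libraries. All 11 were called lower in WT CFA and 9 of 11 in iKO vehicle against WT vehicle, beside 8.71% and 9.33% of all genes. The share of all genes called was far smaller without WT vehicle library 1, a setting in which these markers were not counted. Macrophage markers summed to 255 and 274 CPM in iKO CFA, 105 and 85.7 CPM in iKO vehicle, 110.1 and 318 CPM in WT CFA, and 412 and 314 CPM in WT vehicle. Granulocyte markers, highest in iKO CFA, were at 44.8 and 22.8 CPM in WT vehicle, a range that held WT CFA library 1 at 29.3 CPM. Sensory neuron markers summed to 9585 and 9641 CPM in iKO CFA, 11860 and 11837 CPM in iKO vehicle, 13096 and 11177 CPM in WT CFA, and 6045 and 7814 CPM in WT vehicle, where they were lowest. The part of these differences in the levels of the 9 genes was not tested.

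**Figure D5:**
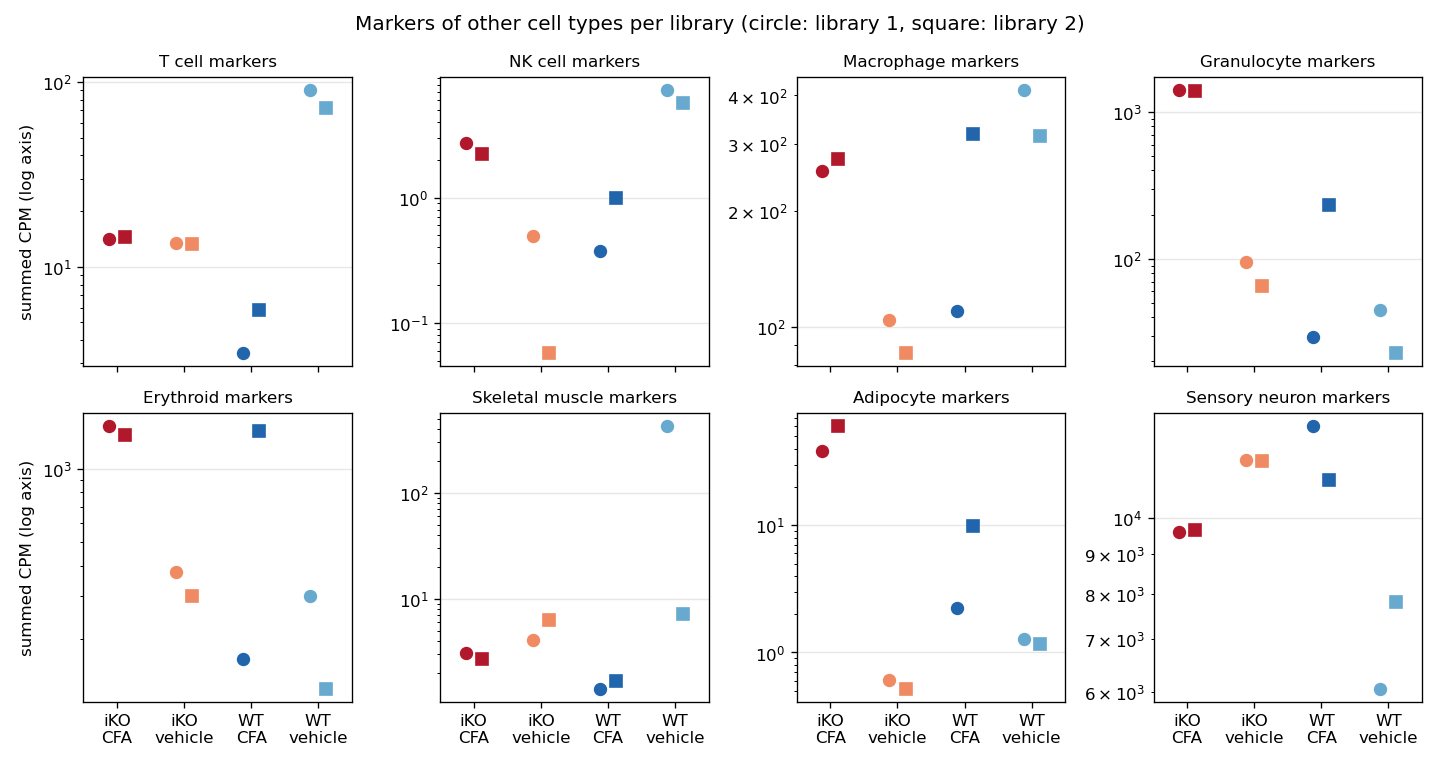
Summed CPM of marker lists of 8 other cell types in each library, on log axes that differ between panels; circles are library 1 and squares library 2. T cell markers are highest in WT vehicle at 90.0 and 72.3 CPM, granulocyte markers in iKO CFA at 1407 and 1402 CPM, and muscle markers in WT vehicle library 1 at 425 CPM.

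Likeness was measured as the root mean square difference between log2(CPM + 0.5) profiles over the 8 libraries, each centred on its own mean. Among 13903 named genes with a mean log2 CPM of at least 0, the 9 genes themselves left out, the 8 nearest to Jchain were Rps2-ps10 (1.57), Ccl8 (1.63), Neat1 (1.73), Igk (1.77), Gbp4 (1.86), Igh (1.86), Meg3 (2.01) and Rps18-ps5 (2.08). Of the 9 genes, ranked apart, Mzb1 (1.31) and Cxcl13 (1.79) were nearest to Jchain and Xbp1 (3.77) farthest. Nearest to Cd79a were Arhgap25 (0.39), Gimap6 (0.41), Zfp217 (0.41), Map4k1 (0.43), Adamts14 (0.45), Tbxas1 (0.46), Zap70 (0.46) and Timp1 (0.47). The ribosomal pseudogenes Rps2-ps10 and Rps18-ps5 share reads with near-identical copies, so their counts are uncertain. The neighbours of Jchain include the noncoding RNAs Neat1 and Meg3, which are not B cell genes; Meg3 was at 5.30 and 3.67 CPM in iKO CFA, 7.65 and 16.8 CPM in iKO vehicle, 8.36 and 3.59 CPM in WT CFA, and 877 and 1098 CPM in WT vehicle. All 8 libraries enter each measure, both WT vehicle libraries included.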

How the data were processed

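RNA was measured in 8 libraries of mouse dorsal root ganglia. The deposited values are counts, whole reads per gene symbol; per the submitters' processing notes the authors used HISAT2 2.2.1, SAMtools 1.19.2 and featureCounts 2.0.6 with GRCm39 (mm39). Annotation and strand setting were not given in the sources used here. Separate animals are not stated, so p-values measure only the spread between these libraries.

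The deposited counts went into edgeR 4.0.16 under R 4.3.3: filterByExpr, TMM scaling, and 1 quasi-likelihood model (legacy = TRUE) with a mean per group over all 8 libraries, with Benjamini-Hochberg adjustment over 20235 genes and a threshold of 0.05. DESeq2 1.42.0 was an alternative. CPM use TMM-scaled sizes. Pooled folds carry exact 95% binomial intervals, which cover counting error only. The model was tested on simulated data with a shared spread for all genes and groups. That test does not cover groups of unequal spread, as found here.

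The 9 genes and 16 lists were chosen with earlier results of these data known. All 9 genes were named, and from other lists up to 4 genes with the smallest p per comparison; Cxcr5, Icos, Ctla4, Pim2 and the reads per 1000 Jchain reads were chosen after values were seen. Promoters came from RefSeq (GRCm38.p6), a build other than that of the counts. The values of 1 gene that the naming rule selects are not reported here.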

Additional observations from a re-analysis of the deposited data

Results flagged for a closer look

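For 7 of the 9 genes the libraries of both genotypes moved in opposite directions with CFA: both iKO CFA libraries lay above both iKO vehicle libraries, and both WT CFA libraries lay below both WT vehicle libraries. The same pattern held for 9.68% of all genes tested. The WT part of this count follows from how the genes were chosen, so the count is a description. The iKO part alone held for 33.9% of all genes tested. The log2 change with CFA in iKO minus that in WT was 13.84 for Jchain, 16.26 for Mzb1, 14.51 for Igl, 7.25 for Derl3, 6.94 for Pou2af1, 2.59 for Cd79a and 5.69 for Cd79b. This difference was not tested, because the WT vehicle libraries chose the genes. The values of Mzb1 and Igl rest on 0 reads in WT CFA and depend on the prior count.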

How the results depend on the processing

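Both WT vehicle libraries lay above all others for 8 of 9 genes, and library 1 above library 2 for 9 of 9, under TMM, RLE and raw library totals alike. Shares of all genes given below count calls in either direction. For CFA in iKO, members called higher moved to 1 with no filter or with legacy = FALSE (beside 1.98% and 0.894% of all genes), 4 in DESeq2 (17%), 6 in the fit of 2 groups (45.3%) and 0 to 7 over fits without 1 library (0% to 32.2%). The 29 B cell genes called higher there moved to 3 with no filter, 2 with legacy = FALSE, 4 in DESeq2, 9 in the fit of 2 groups and 0 to 11 without 1 library. For iKO against WT under CFA, members called higher moved to 2 with legacy = FALSE (2.68%), 1 in the fit of 2 groups (0.183%) or without both WT vehicle libraries (0.866%), and 1 to 6 without 1 library (0.342% to 26.8%). B cell genes moved to 7 in DESeq2, 0 in the fit of 2 groups or without both WT vehicle libraries, and 0 to 13 without 1 library. For CFA in WT, plasma cell genes called lower moved to 5 in the fit of 2 groups. Without 1 library they ranged over 2 to 9 and B cell genes over 2 to 26. For iKO against WT under vehicle these ranges were 2 to 10 and 6 to 21. Over the same fits, the share of all genes called in these 2 comparisons was lowest without WT vehicle library 1. It was highest in both without WT CFA library 1. These ranges are therefore not read as a result about plasma cell or B cell genes. The cause of the changes in the counts was not tested. A group left with 1 library was assumed to vary like the others.

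The replicate block left 4 members called in iKO against WT under CFA and 0 in CFA in iKO, and moved B cell genes in iKO against WT under CFA to 1; calls over all genes there were 207 with the block and 345 without it. Same-numbered libraries shared only a number, with correlations of their differences between -0.27 and 0.10. With 1 library left out, 5 values changed sign. In iKO under CFA against vehicle, Cxcl13 ranged from -3.01 (lacking iKO CFA library 2) to 4.33. Igha ranged there from -2.18 (the same library) to 6.55. Cxcl13 had 0 and 5 reads in iKO CFA and 2 and 0 in iKO vehicle, and Igha 0 and 25 against 1 and 0. Without iKO CFA library 2 neither gene had reads in iKO CFA. The ranges of these genes depend on the prior count and are not read as results. In iKO against WT under CFA, Xbp1 ranged from -0.11 (lacking WT CFA library 1) to 0.34 and Sel1l from -0.60 to 0.070 (the same library). In iKO against WT under vehicle, Dntt ranged from -2.16 to 0.38 (lacking WT vehicle library 1). Counts under 10 reads, as for Cxcl13 outside WT vehicle and Igl in iKO vehicle and WT CFA, limit those values.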
